A study of Mus musculus with 8 samples.

Results

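The endoplasmic reticulum (ER) stress and unfolded protein response genes described here are 35 mouse genes listed by symbol. They comprise 8 sensors and transcription factors, 11 chaperones and folding factors, 8 genes of ER-associated degradation, 5 targets of the kinase PERK and its transcription factor ATF4, and 3 genes of translocation and the ER membrane. All 35 matched among the 40659 gene identifiers of the count table, and all 35 were among the 17252 genes that passed the filter on low counts and were tested. PolyA-RNA was sequenced from the whole hippocampus of 8 male wild-type C57BL/6JRj mice, 4 per group. The hpCTL mice received a recombinant adeno-associated virus (rAAV) with a control hairpin and the hp708 mice one with a hairpin that overexpresses miR-708-5p. Both hairpins lie in the 3′ untranslated region of EGFP, so the 4 control mice also carried a virus, a hairpin and EGFP. The human synapsin promoter limits the hairpin to infected neurons, while the tissue sequenced holds all cell types. The virus was injected into the dorsal and ventral hippocampus at postnatal week 7 to 8, the tissue was taken 4 weeks later, and the labels give its age as 12 to 13 weeks. In bulk tissue, fewer cells of a type and less RNA per cell cannot be told apart.

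The ER folds secreted and membrane proteins, and the unfolded protein response adjusts its capacity. The sensors IRE1 (Ern1), PERK (Eif2ak3) and ATF6 are held inactive by the chaperone BiP (Hspa5) and are released when unfolded protein accumulates. IRE1 splices the Xbp1 mRNA, ATF6 is cut by the proteases S1P (Mbtps1) and S2P into a transcription factor, and PERK phosphorylates eIF2α, which lowers protein synthesis while favouring translation of ATF4. XBP1 and ATF6 drive chaperone and degradation genes, and ATF4 drives amino acid synthesis genes and Ddit3 (CHOP). Counts per gene report mRNA levels and not Xbp1 splicing, ATF6 cleavage or eIF2α phosphorylation.

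The total count per library was 22606824 to 28462428. The precursor gene Mir708 had 0 counts in each of the 8 libraries, so overexpression could not be checked in them. The animal of hp708 replicate 1 is listed as hpCTL in a source data sheet of the study, so the counts and medians over the members and their roles, and each fitted difference printed for a member, are also given without that library. Choroid plexus markers summed to 51.9 to 2060 CPM (read counts scaled to a common library size after TMM normalisation) in hpCTL and 104 to 4390 in hp708. The 7 markers of hippocampal neurons were present in all libraries, with sums of 1390 to 1510 in hpCTL and 1430 to 1740 in hp708.

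The sequence shown first is that of the overexpressed microRNA, because a direct effect on a member would act through its seed (bases 2 to 8 from the 5′ end, in capitals).
mmu-miR-708-5p: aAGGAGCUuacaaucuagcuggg
Matches to this seed were searched in the longest annotated 3′ untranslated region of each gene on GRCm39. They were counted as 8mer sites, as 7mer-m8 sites (the match to bases 2 to 8) or as 7mer-A1 sites (the match to bases 2 to 7 followed by A). A site was found in 11 of the 35 members (31.4%) and in 3927 of 14808 tested genes with such a region (26.5%). No member held an 8mer. Shown, with the match in capitals, are the sites of Atf6, whose fold change was the highest of the 11, and of Dnajb11, Herpud1 and Derl3, whose fold changes were the 3 lowest.
Atf6, chr1:170537567-170537588, minus strand: atcctccacatcaaaAGCTCCT
Dnajb11, chr16:22697269-22697290, plus strand: attctaggaggacagAGCTCCT
Herpud1, chr8:95122867-95122888, plus strand: atagttctgcatggtAGCTCCT
Derl3, chr10:75731154-75731164, plus strand: ctgcAGCTCCT
The other members with a site were Ern1, Hyou1, Derl1, Derl2, Chac1, Sesn2 and Tmbim6. The 11 members with a site had a median log2 fold change of -0.06 between hp708 and hpCTL, and the 24 without one had -0.13. Over all tested genes these medians were 0.00 with a site and -0.01 without one. Leaving out hp708 replicate 1 moved the medians of the members to 0.008 with a site and -0.022 without one, and those of all tested genes to -0.001 for both. Leaving out hpCTL replicate 3 gave -0.026 and -0.062 for the members.

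A second set of sequences is shown because most members that hold it belong to those that varied together with Hspa5 among the mice. The ER stress element consists of CCAAT and CCACG with 9 bases between them and is the binding site through which ATF6 and XBP1 act with NF-Y. It was searched on both strands in RefSeq promoters of GRCm38.p6 from 250 bases before to 50 bases after the start site. Of the 35 members, 30 had a promoter in that set, and 7 of the 30 (23.3%) held the element, against 37 of 27025 genes with a promoter in the set (0.137%). The promoters of Atf6, Hyou1, Manf, Derl1 and Tmbim6 were not analysed here. The matches are printed in the direction of the element, with the fixed bases in capitals.
Hspa5, plus strand, first base 65 bases before the start: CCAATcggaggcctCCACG
Hsp90b1, plus strand, 212 bases before the start: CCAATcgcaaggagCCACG
Hsp90b1, minus strand, 107 bases before the start: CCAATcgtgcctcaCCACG
Pdia6, plus strand, 98 bases before the start: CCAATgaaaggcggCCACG
Dnajc3, plus strand, 105 bases before the start: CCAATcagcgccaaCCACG
Creld2, minus strand, 126 bases before the start: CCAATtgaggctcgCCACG
Syvn1, plus strand, 44 bases before the start: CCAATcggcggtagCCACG
Derl3, minus strand, 156 bases before the start: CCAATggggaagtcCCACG
The ER stress element II, ATTGG and CCACG with 1 base between them, was added after the data were seen. It was present in Herpud1 and Dnajb11 and in 12 of 27025 genes (0.0444%). The ATF4 element TGATGNAAN was present in 5 of the 30 promoters (16.7%), those of Asns, Atf3, Chac1, Herpud1 and Trib3, and in 1215 of 27025 genes (4.5%). These 3 motifs do not overlap each other in the member promoters. A match describes the sequence and is not evidence of binding.

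No member passed the test between hp708 and hpCTL. With edgeR's quasi-likelihood test and 3 surrogate variables (estimated covariates for unknown variation), 0 of 35 members passed a false discovery rate (FDR, Benjamini-Hochberg) of 0.05, and 1 of all 17252 genes did (0.0058%). The lowest member FDR was 0.514, for Manf. At an unadjusted p below 0.05 stood 5 members (14.3%), against 7.7% of all tested genes. Of these 5, the 4 genes Xbp1, Sdf2l1, Manf and Herpud1 were lower in hp708 (11.4% of the members, against 4.87% of all genes), and Ssr1 was higher. The log2 fold change was below 0 for 26 members (74.3%) and for 53.2% of all genes. The median over the members was -0.08, beside -0.01 over all genes, and the members ranged from -0.53 for Trib3 to 0.17 for Atf6. Fold changes are given as log2 of hp708 over hpCTL, with the standard error (SE). These counts depended on the surrogate variables and on single mice. Without surrogate variables 1 member had a p below 0.05, Ssr1, against 1.81% of all genes. Without hp708 replicate 1, the animal with conflicting labels, 2 members did, Atf6 and Ssr1 (12.2% of all genes), 17 members were lower, and the median was 0.00. The median was -0.047 without hpCTL replicate 3, and -0.020 where every library needed 10 counts, with 20 of 34 members lower. Without hp708 replicate 2, 12 members did (12% of all genes), 10 of them lower, with a lowest FDR of 0.13 for Atf6. Without hpCTL replicate 3, 0 members did, against 2.98% of all genes. By DESeq2 with the same surrogate variables 0 members and 96 of all genes were called, and 6 members had a p below 0.05, against 5.02% of all genes. By edgeR's likelihood ratio test, the test named in the study's methods, 0 members and 127 of all genes were called. By that test 4 members had a p below 0.05, against 6.01% of all genes.

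**Figure D1:**
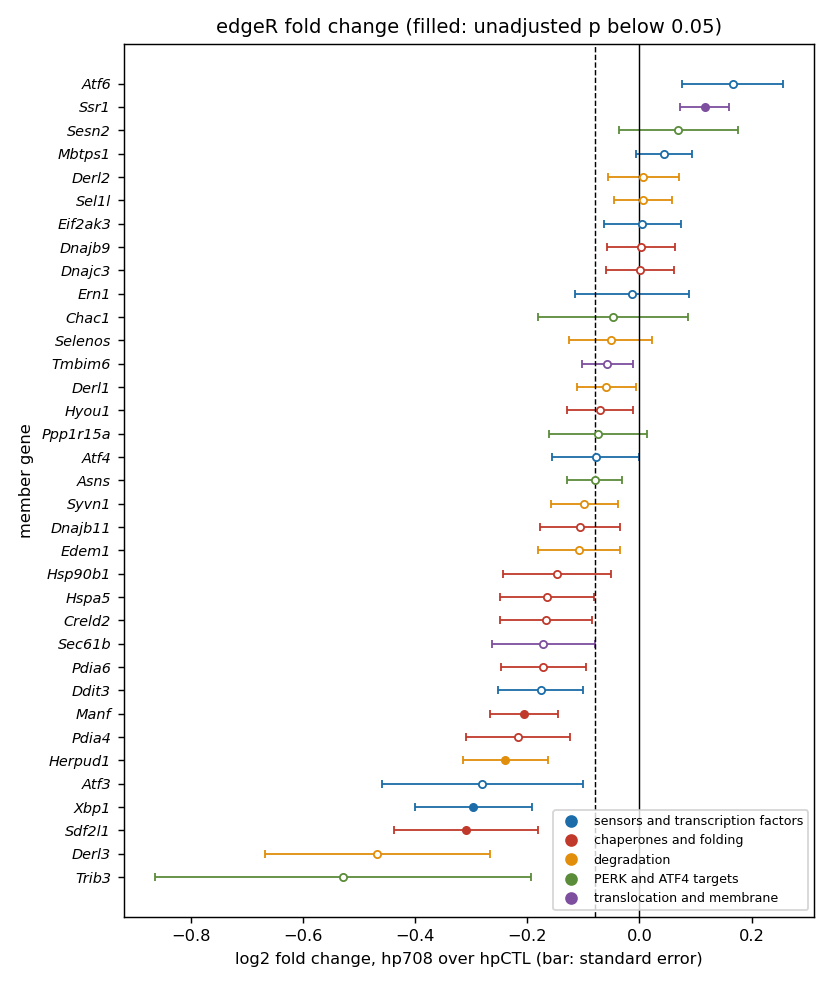
Log2 fold change of hp708 over hpCTL from edgeR's quasi-likelihood fit with 3 surrogate variables for the 35 members, in order. Bars are standard errors, colours give the role, filled points have an unadjusted p below 0.05, and the dashed line is the median of the members (-0.08). Most points lie left of 0, and the filled ones are Ssr1 on the right and Manf, Herpud1, Xbp1 and Sdf2l1 on the left.

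Per length of exon, the members spanned from 75.8 CPM per kb for Hspa5 to 0.159 for Trib3, averaged over the 8 libraries. After Hspa5 came Hsp90b1 (70.2), Tmbim6 (59.5) and Atf4 (51.9 CPM per kb). The gap between Hspa5 and Hsp90b1 was smaller than the spread of Hspa5 among the hp708 mice (SD 104 on a mean of 409.8 CPM). Below Sel1l (25.6), Selenos (24.1) and Pdia6 (23.6), 7 of the 11 chaperones and folding factors and 3 of the 8 degradation genes lay between 9.07 and 17.9 CPM per kb. The sensors were lower, with Atf6 at 8.25, Eif2ak3 at 4.41 and Ern1 at 1.92 CPM per kb. The 6 lowest members were Ddit3 (3.51), Derl3 (3.01), Chac1 (2.27), Ern1, Atf3 (0.728) and Trib3. Exon length counts all annotated exons of a gene together, 5579 bases for Ddit3 and 12163 for Manf. Annotated bases that the expressed mRNA lacks lower the value, so these ranks depend on the annotation. In median CPM, without length, Ddit3 (18.84) stood above Ppp1r15a (14.94) and Sec61b (15.51).

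Of the 8 sensors and transcription factors 5 had a log2 fold change below 0, with a median of -0.045, and 2 did without hp708 replicate 1, with a median of 0.010. It was 0.008 without surrogate variables and 0.002 without hp708 replicate 2 (4 of 8 below 0 in each), -0.012 without hpCTL replicate 4, -0.081 without hpCTL replicate 3 and -0.099 without hp708 replicate 4. Atf6 (chromosome 1, 170532026 to 170696208, GRCm39) had the highest log2 fold change of all members. Control replicates 1 to 4 had 67.9, 73.9, 82.3 and 74.1 CPM, and hp708 replicates 1 to 4 had 76.3, 67.2, 87.6 and 118. The groups overlapped, and hp708 replicate 4 stood above the rest. The difference was 0.17 log2 units (SE 0.09, FDR 0.723 by edgeR's quasi-likelihood test). It was 0.265 without hp708 replicate 1 (unadjusted p 0.00467, FDR 0.164), 0.296 without hp708 replicate 2 (p 0.000559, FDR 0.13) and 0.263 without hp708 replicate 3 (p 0.00409, FDR 0.416). Without hp708 replicate 4, its highest library, the difference was 0.055 log2 units (unadjusted p 0.335, FDR 0.868).

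Ern1 (chromosome 11, 106283818 to 106378686), which encodes the splicing endonuclease IRE1, had 12.5, 18.0, 22.3 and 23.5 CPM in hpCTL and 17.9, 17.1, 20.9 and 22.5 in hp708. The hp708 mice lay inside the range of the control mice, and hpCTL replicate 1 was the lowest. edgeR's quasi-likelihood fit gave -0.01 log2 units (SE 0.10, FDR 0.985), a value whose sign changed in several alternatives. Eif2ak3 (chromosome 6, 70821461 to 70882235), the kinase PERK, had 25.5, 26.8, 29.6 and 30.2 CPM in hpCTL and 30.4, 25.9, 26.9 and 28.7 in hp708. On the log2 scale hp708 differed by 0.01 (SE 0.07, FDR 0.990). Without hp708 replicate 1 the difference was 0.008 for Ern1 and -0.049 for Eif2ak3. Mbtps1, the S1P protease that releases ATF6, averaged 92.9 CPM ± 5.04 (SD, n = 4) in hpCTL and 95.8 ± 6.07 (n = 4) in hp708.

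Xbp1 (chromosome 11, 5470606 to 5483027), the transcription factor whose mRNA IRE1 splices, had 131, 131, 158 and 131 CPM in hpCTL and 110.2, 158, 109 and 100.1 in hp708. Replicates 1, 3 and 4 of hp708 lay below all control mice, while hp708 replicate 2 matched the highest control. The fitted difference was -0.30 log2 units (SE 0.10, unadjusted p 0.0237, FDR 0.594 by edgeR's quasi-likelihood test). Leaving out hp708 replicate 1 gave -0.209 (p 0.162), leaving out hpCTL replicate 3 gave -0.179 (p 0.0666), and the fit without surrogate variables gave -0.206 (p 0.174). Of its exon bases, 22% are also exons of Ccdc117 on the other strand, and the strand setting of the counting is not given in the sources used here.

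Atf4 (chromosome 15, 80139372 to 80141745) had 147, 129, 113 and 119 CPM in hpCTL and 109, 116, 119.7 and 133 in hp708, overlapping over most of their range, and differed by -0.08 log2 units (SE 0.08, FDR 0.861 by edgeR's quasi-likelihood test), or 0.018 without hp708 replicate 1. Ddit3 (chromosome 10, 127124268 to 127132163) encodes CHOP, a transcription factor that promotes cell death under lasting ER stress. The control mice had 24.0, 18.9, 19.2 and 18.7 CPM, and the hp708 mice 16.5, 27.1, 16.2 and 15.9. As with Xbp1, replicates 1, 3 and 4 of hp708 were below all control mice and hp708 replicate 2 was the highest of the 8. The difference was -0.18 log2 units (SE 0.08, FDR 0.656), and 0.01 without hp708 replicate 1, -0.272 without hp708 replicate 2 and -0.097 without surrogate variables. Ddit3 shares 64.1% of its exon bases with Mars1 on the other strand, so reads of the 2 genes may mix. Atf3 (chromosome 1, 190902493 to 190950241), an early stress-induced factor, had only 29 to 57 reads per library, or 1.05 to 2.35 CPM, in both groups. edgeR's quasi-likelihood fit gave -0.28 log2 units (SE 0.18, FDR 0.760), which turned positive without surrogate variables (0.019) and without hp708 replicate 1 (0.199), and was -0.462 without hp708 replicate 4.

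Of the 11 chaperones and folding factors, 9 had a log2 fold change below 0, with a median of -0.16 and a range of -0.31 to 0.00, and 0 of 11 passed the test. Without hp708 replicate 1 the count was 7 and the median -0.049, without hpCTL replicate 3 they were 9 and -0.051, and without surrogate variables 9 and -0.075. Hspa5 (chromosome 2, 34661982 to 34668880), the chaperone BiP that binds unfolded proteins and silences the sensors, had 437, 413, 467 and 409.6 CPM in hpCTL. In hp708 it had 404, 558, 329 and 348 CPM. The highest and the lowest value of all 8 mice were thus both in hp708. On the log2 scale hp708 differed by -0.16 (SE 0.08, FDR 0.712 by edgeR's quasi-likelihood test). The difference was -0.051 without hpCTL replicate 3, -0.077 without hp708 replicate 1 and -0.075 without surrogate variables. Of the Hspa5 exon bases, 44.2% are also exons of Rabepk on the other strand.

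Hsp90b1 (chromosome 10, 86526073 to 86541446), the ER member of the HSP90 chaperones, had 448, 391, 509 and 422 CPM in hpCTL and 406, 506, 361 and 389.7 in hp708. The groups overlapped, with hpCTL replicate 3 the highest and hp708 replicate 3 the lowest of the 8. The fitted difference was -0.15 log2 units (SE 0.10, FDR 0.767 by edgeR's quasi-likelihood test), and it was -0.008 without hpCTL replicate 3, -0.222 without hpCTL replicate 2, -0.041 without hp708 replicate 1 and -0.089 without surrogate variables. Sdf2l1 (chromosome 16, 16948002 to 16950252), a partner of ER DNAJ co-chaperones, had 22.3, 20.2, 22.8 and 18.1 CPM in hpCTL and 17.5, 30.2, 12.4 and 16.0 in hp708. It spanned 2.42-fold from hp708 replicate 3 to hp708 replicate 2, and the control mice lay between them. The difference was -0.31 log2 units (SE 0.13, unadjusted p 0.0469, FDR 0.646). It was -0.114 (p 0.574) without hp708 replicate 1, -0.164 (p 0.224) without hpCTL replicate 3, -0.204 (p 0.16) without hp708 replicate 3 and -0.132 (p 0.587) without surrogate variables.

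Manf (chromosome 9, 106715511 to 106769727), an ER-resident and secreted neurotrophic factor, had 62.4, 55.1, 58.2 and 56.4 CPM in hpCTL and 50.6, 77.5, 41.6 and 46.9 in hp708. Here too 3 hp708 mice were below all controls and hp708 replicate 2 was above them. edgeR's quasi-likelihood fit gave -0.21 log2 units (SE 0.06, unadjusted p 0.0112, FDR 0.514), and without hp708 replicate 1 it gave -0.049 (p 0.647). It gave -0.100 without surrogate variables (p 0.565) and -0.136 without hpCTL replicate 3 (p 0.075). Its annotated exons share 32.6% of their bases with Rbm15b on the same strand. For each of the 7 remaining folding genes the fit gave a lower value than the difference in mean log2 CPM, and Pdia4 was below Manf. In mean log2 CPM, without surrogate variables, these 7 genes differed by -0.14 to 0.08 between hp708 and hpCTL. They were the disulfide isomerases Pdia4 (79.2 CPM ± 6.71 in hpCTL and 74.7 ± 22.8 in hp708, SD, n = 4) and Pdia6 (158 ± 17.4 and 144 ± 27.96), the co-chaperones Dnajb9, Dnajb11 and Dnajc3, Creld2 (25.2 ± 1.17 and 24.6 ± 7.30) and the large chaperone Hyou1 (149 ± 8.53 and 144 ± 7.18).

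**Figure D2:**
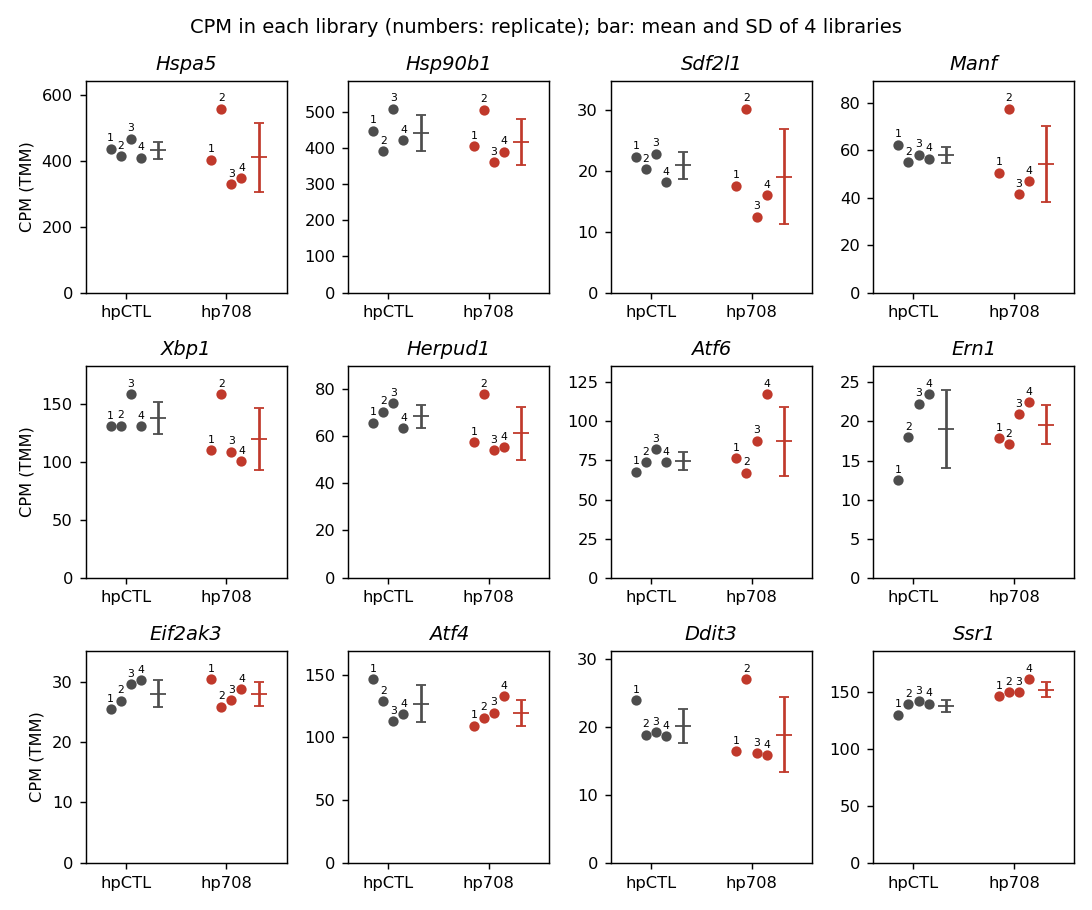
CPM (TMM-normalised) of 12 members in each of the 4 hpCTL and 4 hp708 libraries, with the replicate number above each point and the mean and SD of 4 libraries beside them. In the panels of Hspa5, Sdf2l1, Manf, Xbp1, Herpud1 and Ddit3, hp708 replicate 2 is the highest of the hp708 points and the other hp708 points lie under the control points, while Ssr1 separates the groups.

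Among the 8 degradation genes 6 had a log2 fold change below 0, the median was -0.08, and 0 of 8 passed the test. The direction turned without hp708 replicate 1, where 3 of the 8 were below 0 and the median was 0.034, and without hpCTL replicate 3 the median was -0.031. Herpud1 (chromosome 8, 95113022 to 95123141), which organises the retrotranslocation complex around the ubiquitin ligase Syvn1, had 65.6, 70.3, 73.8 and 63.2 CPM in hpCTL and 57.3, 77.8, 54.1 and 55.1 in hp708. Again replicates 1, 3 and 4 of hp708 were below all controls and replicate 2 was the highest of the 8. On the log2 scale hp708 differed by -0.24 (SE 0.08, unadjusted p 0.0154, FDR 0.549 by edgeR's quasi-likelihood test), or by -0.157 without hp708 replicate 1 (p 0.186) and -0.159 without surrogate variables (p 0.206). Derl3 (chromosome 10, 75729215 to 75731775), a derlin best known from secretory cells, had 4.21, 5.82, 10.05 and 6.57 CPM in hpCTL and 4.28, 7.61, 4.77 and 5.49 in hp708. The ranges overlapped almost fully, with hpCTL replicate 3 the highest, and the difference was -0.47 log2 units (SE 0.20, FDR 0.656). It was -0.221 without hp708 replicate 1, -0.252 without hpCTL replicate 3 and -0.267 without surrogate variables. Its paralogs Derl1 (77.9 CPM ± 6.37 in hpCTL and 75.4 ± 5.67 in hp708, SD, n = 4) and Derl2 (33.6 ± 1.38 and 34.5 ± 2.67) differed by less than the spread within groups. The same held for the ubiquitin ligase Syvn1 (75.9 ± 4.49 and 72.2 ± 4.51), its partner Sel1l (230.2 ± 11.1 and 234 ± 7.43) and Selenos (36.3 ± 4.39 and 35.2 ± 4.93). Edem1, which marks misfolded glycoproteins for degradation, varied more, from 26.9 CPM in hpCTL replicate 1 to 50.6 in hp708 replicate 4.

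The 5 PERK and ATF4 targets had a median log2 fold change of -0.07, and 0 of 5 passed the test or had an unadjusted p below 0.05. The median was -0.146 without hp708 replicate 1, -0.044 without hpCTL replicate 1 and -0.047 without hpCTL replicate 3. Trib3 (chromosome 2, 152179337 to 152191958), a pseudokinase that feeds back on ATF4, was near the detection limit, with 5 to 22 reads per library. It had 0.178, 0.787, 0.902 and 0.713 CPM in hpCTL and 0.544, 0.304, 0.384 and 0.496 in hp708. With an SE of 0.34 its log2 fold change was -0.53 (FDR 0.757 by edgeR's quasi-likelihood test), and the lowest of the 8 values was in hpCTL. The difference was -0.895 without hp708 replicate 1 and -0.318 without hpCTL replicate 2. Chac1 (chromosome 2, 119180757 to 119184866), which degrades glutathione, had 5.96, 6.12, 6.69 and 5.48 CPM in hpCTL and 6.34, 4.39, 5.75 and 6.44 in hp708, and the groups overlapped (log2 fold change -0.05, SE 0.13, FDR 0.955, and -0.146 without hp708 replicate 1). Asns, the asparagine synthetase, averaged 89.8 CPM ± 10.8 in hpCTL and 83.2 ± 5.64 in hp708 (SD, n = 4). Ppp1r15a, the phosphatase subunit that reverses eIF2α phosphorylation, averaged 15.3 ± 0.513 and 14.3 ± 1.27, and Sesn2 averaged 19.2 ± 1.92 and 20.4 ± 1.76.

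Ssr1 (chromosome 13, 38149556 to 38178224), a subunit of the translocon-associated protein complex that helps proteins enter the ER, was the one member whose groups did not overlap, which 1.51% of all tested genes showed. The control mice had 129.9, 139, 142 and 139.5 CPM, and the hp708 mice 146, 149, 149.7 and 161. The fitted difference was 0.12 log2 units (SE 0.04, unadjusted p 0.0301, FDR 0.612 by edgeR's quasi-likelihood test). Without hp708 replicate 1 the difference was 0.153 (unadjusted p 0.0199, FDR 0.296). The p was above 0.05 without hp708 replicate 4 (0.0655) and without hpCTL replicate 2 (0.0821), 3 (0.125) or 4 (0.0529). Of the other members of its role, Tmbim6, a membrane protein that restrains IRE1, had 371 CPM ± 17.2 in hpCTL and 362 ± 24.5 in hp708 and the translocon subunit Sec61b had 16.9 ± 1.91 and 15.2 ± 1.35 (SD, n = 4).

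The spread of the members within the groups depended on hp708 replicate 2. The median SD of log2 CPM over the 35 members was 0.116 in hpCTL and 0.232 in hp708, while over all tested genes it was 0.171 and 0.180. The SD was larger in hp708 for 23 of the 35 members and for 55.8% of all genes. Without hp708 replicate 2 the median SD of the members in hp708 was 0.109, no larger than the 0.116 of hpCTL, and the SD was larger in hp708 for 13 of the 35 members and for 46% of all genes. Leaving out hp708 replicate 1 gave the members a median SD of 0.280 in hp708, larger than in hpCTL for 22 members (55.5% of all genes). Without hpCTL replicate 1 the median SD in hpCTL was 0.089 over the members and 0.100 over all genes, beside 0.232 and 0.180 in hp708. The SD was then larger in hp708 for 31 of the 35 members and for 77.4% of all genes. A larger SD in hp708 was thus common to most genes without that library, not only to the members. Of the 11 chaperones and folding factors, 9 were highest in hp708 replicate 2 (15.5% of all genes were highest there) and 10 were lowest in hp708 replicate 3 (13.9% of all genes). The median deviation of these 11 genes from their mean over the 8 libraries was 0.35 log2 CPM in hp708 replicate 2, -0.27 in hp708 replicate 3 and -0.20 in hp708 replicate 4, and it lay between -0.07 and 0.13 in the other 5 libraries. The degradation genes showed smaller deviations with the same signs, 0.18 in hp708 replicate 2 and -0.15 in hp708 replicate 3. For the PERK and ATF4 targets the median deviation was -0.11 in hp708 replicate 2 and -0.03 in hp708 replicate 3.

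**Figure D3:**
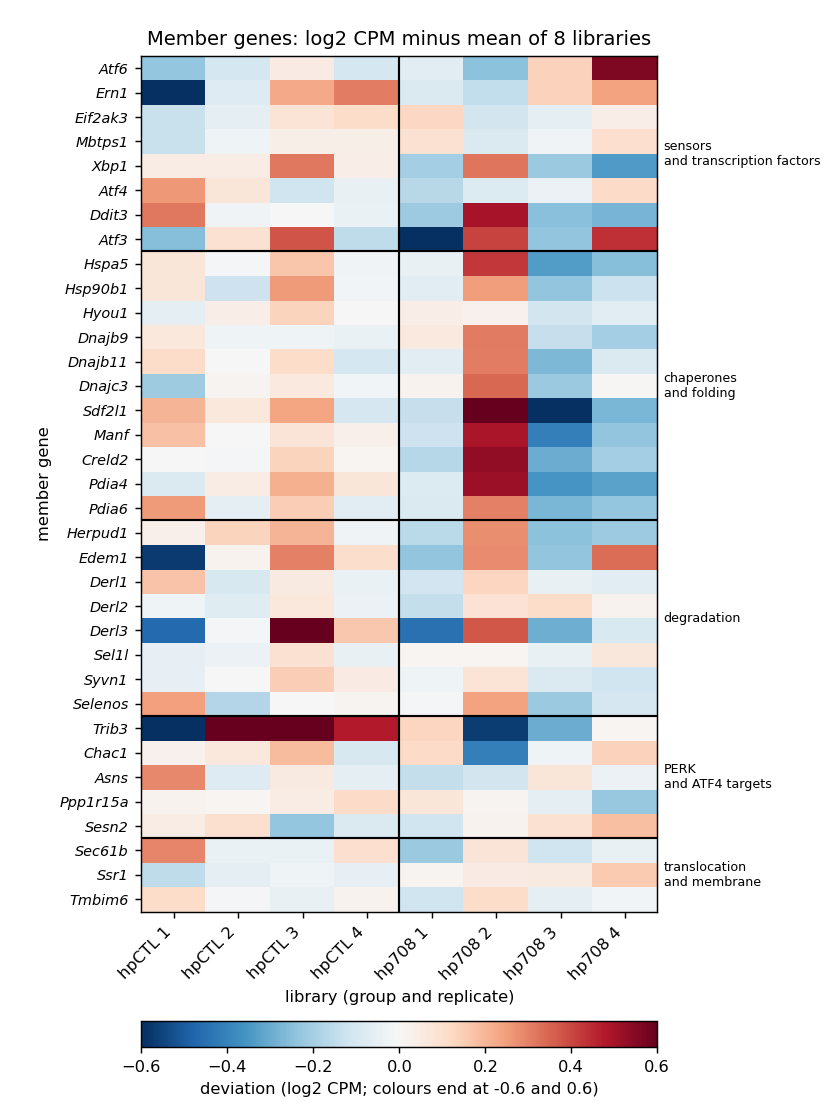
Log2 CPM of each of the 35 members (rows, in blocks by role) minus its mean over the 8 libraries (columns, 4 hpCTL then 4 hp708), red above and blue below the mean. The block of chaperones is red in hp708 replicate 2 and blue in hp708 replicates 3 and 4, while the PERK and ATF4 targets show no such column.

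To see which members varied together, each was correlated with Hspa5 over the 8 libraries on log2 CPM. A Pearson r of at least 0.7 was found for 14 of the 34 other members (41.2%) and for 4.42% of the 17251 other tested genes. By role these were 9 of the 10 other chaperones and folding factors (all but Hyou1), 3 of 8 degradation genes (Herpud1, Syvn1 and Selenos), 2 of 8 sensors and transcription factors (Xbp1 and Ddit3) and 0 of the PERK and ATF4 targets and the membrane genes. Sdf2l1 had the highest r of all 17251 genes, with r = 0.974 (exact permutation p = 2.48e-05, the smallest that 8 libraries allow) and Spearman's rho = 1.00 (exact permutation p = 4.96e-05). Manf (r = 0.965, rho = 0.952), Pdia4 (0.960, 0.833) and Creld2 (0.956, 0.929) came at ranks 3, 4 and 6 among all genes by r. Their exact permutation p for r was 0.000422, 0.000744 and 9.92e-05, and for rho 0.00114, 0.0154 and 0.00223. Xbp1 had r = 0.893 and Ddit3 r = 0.867 (exact permutation p = 0.0028 and p = 0.00503), with rho = 0.952 for both (exact permutation p = 0.00114).

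After Benjamini-Hochberg adjustment over all 17251 genes no member's correlation had an FDR below 0.05. The lowest FDR was 0.391 for r and 0.285 for rho, both reached by Sdf2l1. With 8 libraries the exact permutation p cannot fall below 2.48e-05 for r, so over this many genes a low FDR could hardly be reached. A high FDR is therefore no evidence that a correlation is absent. On deviations from the group means 14 members again reached an r of at least 0.7 (6.27% of all genes). Without hp708 replicates 2 and 3, the libraries farthest from the Hspa5 median, 12 members did (6.41% of all genes), among them Ppp1r15a, a PERK and ATF4 target, which had r = 0.489 over all 8 libraries and 0.723 over those 6. In those 6 libraries Sdf2l1 kept r = 0.918 and Xbp1 r = 0.925, whereas Dnajc3 had -0.136, Selenos 0.441 and Ddit3 0.681. The relations of Dnajc3 and Selenos with Hspa5 rest on those libraries, which hold the highest and the lowest Hspa5, so the range left for a correlation is narrower without them. That of Ddit3 stayed just under 0.7. Without hp708 replicate 1 the count was 14 (5.84% of all genes). Leaving out 1 library gave 12 (without hp708 replicate 3, 4.82% of all genes) to 16 (without hpCTL replicate 1, 8.67%).

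At the other end was Atf6, with r = -0.684 and rho = -0.738 (exact permutation p = 0.0697 and p = 0.0458, FDR 0.529 and 0.552), and -0.728 without hp708 replicates 2 and 3. Chac1 (-0.543), Mbtps1 (-0.471), Sesn2 (-0.433), Ern1 (-0.357), Eif2ak3 (-0.245) and Atf4 (-0.205) also had negative values of r, with exact permutation p between 0.18 and 0.623. The mRNAs of the 3 sensors Ern1, Eif2ak3 and Atf6 thus all had a negative r with Hspa5, while among the further pathway genes Atf6b had 0.065 and Creb3 0.638. A negative sign was common, as 48.1% of all genes had an r of at least 0.077 and 60.6% one of at least -0.106. No test was made on the 3 sensors together. Of the 14 genes with a promoter that were Hspa5 or had an r of at least 0.7 with it, 6 held the ER stress element printed above and 2 the ER stress element II, and of the 16 other members with a promoter 1 (Derl3) held the first and 0 the second. The ATF4 element was in 1 of those 14 and in 4 of those 16. These are counts of listed genes, and no test was made on them.

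**Figure D4:**
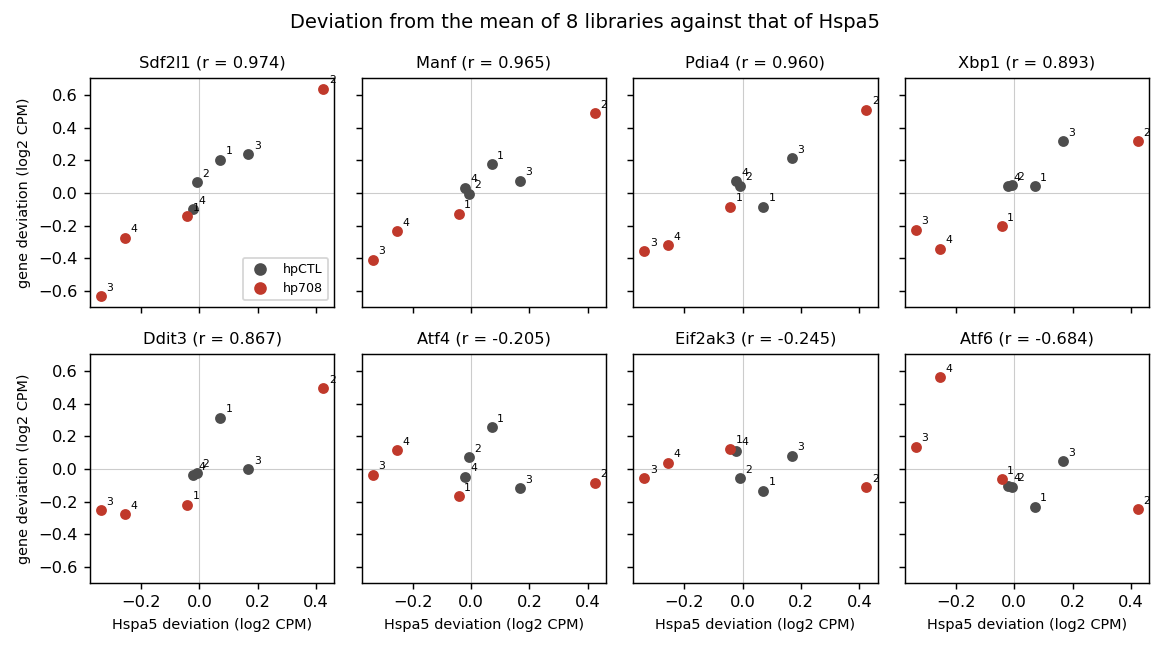
Deviation of log2 CPM from the mean of the 8 libraries for 8 members (y axis) against that of Hspa5 (x axis), with hpCTL in grey, hp708 in red, the replicate number beside each point and Pearson's r in each title. Sdf2l1, Manf and Pdia4 follow Hspa5 from hp708 replicate 3 up to hp708 replicate 2, Atf4 and Eif2ak3 do not, and Atf6 is highest in hp708 replicate 4, where Hspa5 is low.

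Markers of cell types also moved with Hspa5 over the 8 libraries. The summed CPM of the 4 oligodendrocyte markers was 3510 to 4720 in hpCTL and 3570 to 6640 in hp708, highest in hp708 replicate 2, and its log2 had r = 0.712 with Hspa5. The 6 plasma and B cell markers, from cells with a large secretory ER, summed to 208 to 563 CPM in hpCTL and 194 to 531 in hp708 and had r = 0.694. They were highest in hpCTL replicate 3 and hp708 replicate 2, the libraries with the highest Hspa5. The sum of the 7 hippocampal neuron markers had r = -0.686 and was highest in hp708 replicate 3. One of these markers, Wfs1, is also among the further pathway genes. It went the other way, with r = 0.392 and its lowest CPM, 88.66, in hp708 replicate 3. The other markers of this list are not given singly here. Choroid plexus markers had r = 0.426 and astrocyte markers -0.077, and the 6 other lists (microglia, endothelium, T cells, interferon response, immediate early genes and subiculum) 0.01 to 0.419. No marker of these lists was at 0 in any library. The part of these cell types in the variation of the members was not tested.

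Of 102 further genes of ER folding, degradation, translocation, the sensors' regulators and the integrated stress response, 100 were tested and 0 passed, by edgeR's quasi-likelihood test or by DESeq2. An unadjusted p below 0.05 was found for 5 of the 100 (7.7% of all tested genes), all 5 lower in hp708 (4.87% of all genes). A log2 fold change below 0 was found for 72 of the 100, against 53.2% of all genes, and the median was -0.03. Without hp708 replicate 1 these became 47 of the 100 (51.3% of all genes) and 0.006, without surrogate variables 61 and -0.021, without hpCTL replicate 1 61 and -0.017, and without hpCTL replicate 2 69 and -0.056. The lowest p was that of Bax, a pro-apoptotic protein, with 42.6, 35.7, 34.1 and 36.8 CPM in hpCTL and 31.0, 40.3, 29.7 and 30.8 in hp708 (log2 fold change -0.20, SE 0.05, FDR 0.478 by edgeR's quasi-likelihood test). The groups overlapped through hp708 replicate 2. Nfe2l2, the oxidative stress factor NRF2, differed by -0.34 log2 units (SE 0.10, FDR 0.525), and Ostc, a subunit of the oligosaccharyltransferase, -0.15 (SE 0.05, FDR 0.594). An r of at least 0.7 with Hspa5 was reached by 15 of the 100, against 4.42% of all genes. Among the 15 were 5 of folding (Pdia3 0.921, Calr 0.849) and 5 of translocation (Spcs2 0.958, Tram1 0.876), and by 1 of the integrated stress response (Slc3a2 0.824).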

How the data were processed

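PolyA-RNA was sequenced from the hippocampi of 4 hpCTL and 4 hp708 mice. The authors mapped reads to GRCm39 with STAR 2.7.8a, counted them per gene with featureCounts 1.6.4 and deposited raw counts in 1 table. The strand and multi-mapping settings are not given in the sources used here. Groups were taken from the sample labels, which name separate animals. Of 40659 identifiers, 39641 were named from the GENCODE annotation. Ddit3 has a second, shorter identifier (105 bases, 35 to 70 counts), which was not used.

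The filter was filterByExpr, and 17252 genes remained. Group differences were computed in R 4.3.3 by the quasi-likelihood test of edgeR 4.0.16, in its edgeR 3 form. TMM scaled the libraries, and svaseq of sva 3.50.0 gave 3 surrogate variables as covariates. FDR is the p adjusted by Benjamini-Hochberg over all tested genes. Log2 CPM used a prior count of 2. The function was tested on simulated data. Alternatives included DESeq2 1.42.0, with the other changes given under the dependence on the processing. The lowest chi-square per degree of freedom between libraries of a group was 10.0, so no library was a copy of another. Correlations with Hspa5 were tested by exact permutation of the 8 libraries. The members and the lists of pathway genes and markers were chosen with earlier results of these data known. Given in full are Hspa5, Hsp90b1, Ern1, Eif2ak3, Atf6, Xbp1, Atf4, Ddit3, Atf3, Herpud1, Sdf2l1, Manf, Chac1, Trib3 and Derl3, members with an unadjusted p below 0.05, members whose groups did not overlap, and the 3 pathway genes with the lowest p. One listed pathway symbol, Srpr, had no match. Protein sequences were not used here.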

Additional observations from a re-analysis of the deposited data

Results flagged for a closer look

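Among 86 groups of 4 values looked at, 8 had 1 library so far from the other 3 that its gap to the nearest, as a share of the group's range, exceeded the 95% limit of Dixon's test, where chance gives about 4.3 (1 in 20). In hp708, replicate 2 stood above the others for Ddit3 (27.1 CPM, the others 15.9 to 16.5), Creld2 (35.5, the others 19.9 to 21.7) and Herpud1 (77.8, the others 54.1 to 57.3). In hpCTL, replicate 3 stood above the others for Xbp1 (158 CPM, the others 131), Creld2 (26.9, the others 24.4 to 24.7) and Sel1l (247, the others 224 to 226). In hpCTL, replicate 1 stood above the others for Ddit3 (24.0 CPM, the others 18.7 to 19.2) and Dnajb9 (39.3, the others 36.6 to 36.9).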

How the results depend on the processing

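No alternative called a member or a further pathway gene at an FDR below 0.05. The count of all called genes, 1, became 0 without surrogate variables or where every library needed at least 10 counts, 127 by the likelihood ratio test, 3 by the edgeR 4 quasi-likelihood, 96 by DESeq2, 12 without a filter, 0 to 56 leaving out 1 library (56 without hp708 replicate 1), and 0 without hp708 replicate 1 and surrogate variables. The members with p below 0.05, 5, became 1 without surrogate variables (also with hp708 replicate 1 left out), 11 without a filter, 0 where every library needed 10 counts, and 0 to 12 leaving out 1 library. The share of all genes at that p moved too, from 1.81% without surrogate variables to 12.2% without hp708 replicate 1. It is not given for the fits without a filter, with 10 counts or with the replicate block, so their counts are not set against all genes. Leaving out 1 library gave 17 to 29 lower members. The replicate numbers of the labels paired nothing (correlations of same-numbered libraries -0.04 to 0.02), and the replicate block without surrogate variables gave 0 members with p below 0.05. Signs turned for 6 named members, none of them called, and the cause was not tested. Without surrogate variables the log2 fold changes became 0.039 for Ern1, -0.002 for Eif2ak3 and 0.019 for Atf3, and with hp708 replicate 1 also left out 0.085, -0.041 and 0.212. With the replicate block Ern1 was 0.070 and Eif2ak3 -0.001, without a filter Ern1 was 0.085 and Chac1 0.002, and with 10 counts in every library Atf3 was 0.021. Leaving out 1 library gave -0.088 to 0.083 for Ern1, -0.049 to 0.056 for Eif2ak3, -0.153 to 0.018 for Atf4, -0.272 to 0.006 for Ddit3, -0.462 to 0.199 for Atf3 and -0.146 to 0.039 for Chac1, and of these 8 fits only the one without hp708 replicate 1 turned Atf4, Ddit3 and Atf3 positive. Where every library needed 10 counts, Xbp1 was -0.221, Manf -0.045, Sdf2l1 -0.092, Hspa5 -0.057, Hsp90b1 -0.028 and Ddit3 -0.022. Depth was lowest for Trib3 (5 to 22 reads per library) and Atf3 (29 to 57), with standard errors of 0.34 and 0.18. The values over roles, seed sites and spread with 1 library left out were chosen after seeing the data.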
